A study of Mus musculus with 13 samples.

Results

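The genes described here are 10 members of retinoid and aldehyde metabolism, taken by name from a bulk RNA table of 21950 genes and from 4 single-cell matrices of 28693 genes, all from mouse abdominal epidermis (C57BL/6). All 10 were present in both kinds of file. The bulk libraries were made from sorted basal cells of the epidermis between hair follicles (CD49f+, CD34-), 3 each from pregnant Tbx3 conditional knockout (cKO) mice of genotype K14creERT2;Tbx3flox/flox at gestation day 16 (dpc16), from wild type (WT) mice at dpc16 and from WT non-pregnant (NP) mice. The recombinase of the cKO mice is driven by the keratin 14 promoter and is activated by tamoxifen. The controls are labelled only as WT, and whether they had tamoxifen, how old the animals were and how many gave a library were not stated. The p-values therefore measure how libraries differ, and that spread may be technical. Single cells were from another strain, Tbx3creERT2; R26H2B EGFP, after tamoxifen, using the whole epidermis and 1 library for each of 4 states: NP, dpc16, and days 6 and 40 after delivery (dpp6 and dpp40).

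Retinol reaches the epidermis from blood and is either stored as ester or oxidised in a pair of steps. Alcohol dehydrogenases and short-chain retinol dehydrogenases make retinal, some short-chain enzymes run that step backwards, and retinal dehydrogenases of the ALDH1A group make retinoic acid. Retinoic acid is carried by CRABP proteins to nuclear receptors of the RAR family, and enzymes of the CYP26 family break it down. In skin, retinoic acid is known to restrain cornification and to act on sebaceous glands and follicles. Related aldehyde dehydrogenases clear aldehydes that arise from lipid peroxidation.

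Bulk values are FPKM, that is, fragments scaled by transcript length and library size, so levels can be compared between genes. Summed FPKM lay between 785636 and 847693 per library, and 11212 to 11604 genes reached 1 FPKM. From the steps between low values, the depth of the 9 libraries was estimated at 0.624 to 1.30 times that of WT dpc16 library 1. The lowest estimate, of NP library 1, lay near the edge of the range searched. For NP library 2 the leading step held 16 genes, against 13 for the next. The number of reads behind a value is not given. Tbx3, the targeted gene, was at 1.65 to 4.89 FPKM in cKO, against 15.3 to 22.98 FPKM in WT dpc16, and 6.38 to 8.96 FPKM in NP. Basal markers Krt5 and Krt14 were abundant in every bulk library (4260 to 14070 FPKM) and Cd34 was at most 2.23 FPKM, while Krt1 of the spinous layer was at 160 to 2027 FPKM. The single-cell libraries kept 6491 (NP), 12853 (dpc16), 9031 (dpp6) and 8552 (dpp40) cells, with 39767733 to 74289307 UMIs (unique molecular identifiers, counts of captured RNA molecules). Any pair of these libraries shared at most 1.77% of the barcodes of the smaller one.

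The clearest difference among the members was in Adh7, the class IV alcohol dehydrogenase, an efficient retinol-oxidising enzyme of epithelia. Adh7 was at 114, 148 and 115 FPKM in the cKO libraries, against 39.8, 55.4 and 32.9 FPKM in the WT dpc16 libraries. The lowest cKO library was thus well above the highest WT dpc16 library. Adh7 averaged 126 ± 19.4 FPKM in cKO and 42.7 ± 11.5 FPKM in WT dpc16 (SD, n = 3 each). Its log2 change was 1.56 ± 0.22 (SE), with a Benjamini-Hochberg adjusted limma p of 0.00987. Adh7 was the single member past the threshold of 0.05 among the 7 that could be tested, where 2.15% of all 11497 tested genes passed. It stayed past that threshold without each library in turn and under every other alternative tried for this contrast (log2 change 1.39 to 1.76, adjusted limma p from 0.008 to 0.0433). In bulk RNA, a change in the number of cells of a type and a change in the RNA of each cell cannot be told apart.

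Pregnancy in WT mice went with the opposite direction. NP libraries held 67.4, 74.1 and 98.6 FPKM of Adh7 (mean 80.0 ± 16.4, SD, n = 3), all above the 3 WT dpc16 libraries and all below the 3 cKO libraries. For WT dpc16 against NP the log2 change was -0.90 ± 0.22 (SE), with a raw limma p of 0.00204 and an adjusted p of 0.192, so it did not pass. For cKO against NP it was 0.65 ± 0.22, with an adjusted limma p of 0.108. These comparisons share libraries with the cKO against WT dpc16 comparison and with each other.

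**Figure D1:**
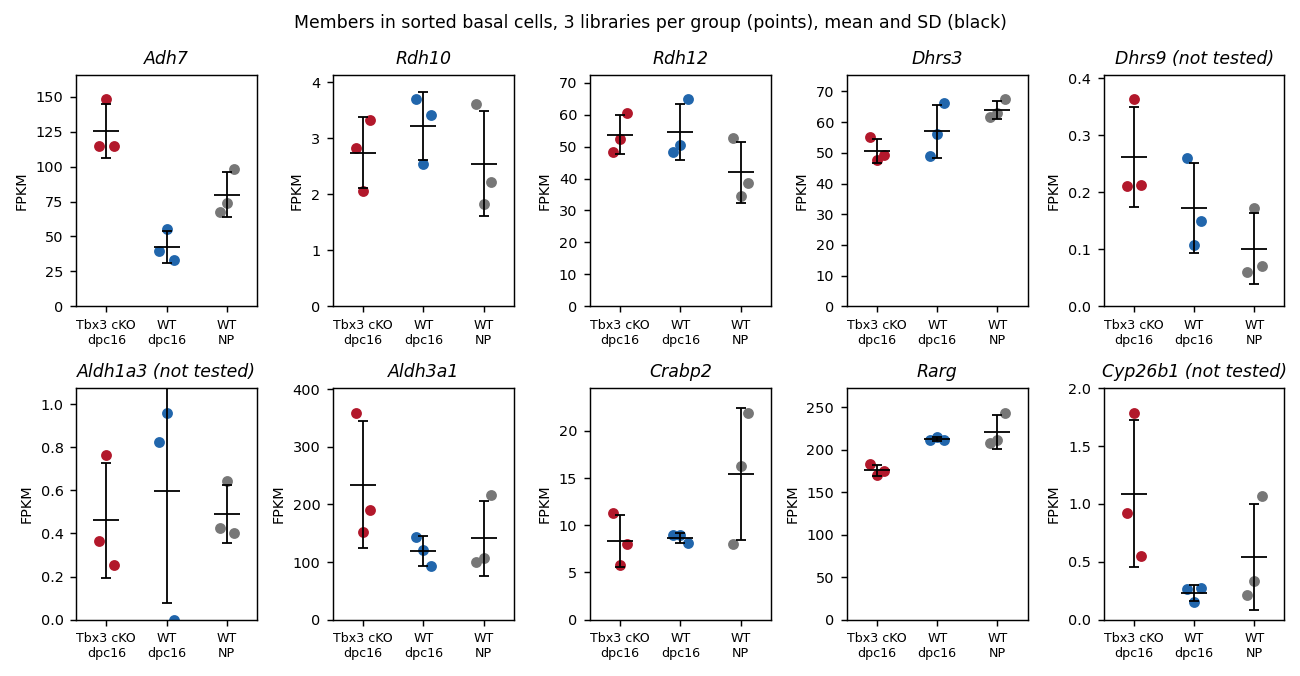
FPKM (vertical axes, linear, from 0) of the 10 members in sorted basal cells of Tbx3 cKO dpc16, WT dpc16 and WT NP mice; points are libraries, and black marks are the mean and SD of 3. The cKO libraries of Adh7 sit between 114 and 148 FPKM, above all WT dpc16 and NP libraries.

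Adh7 (ENSMUSG00000055301.8) lies on the plus strand of mouse chromosome 3 at chr3:138217760-138233382 (mm10, GENCODE M21), at one end of the alcohol dehydrogenase gene cluster. An annotated antisense gene, 0610031O16Rik, overlaps it. The bulk kit marks strand, but the strand setting of the authors' counting is not given. The start of Adh7 is the region where retinoic acid receptors or a T-box factor would be looked for first, so its window of 250 bases before to 50 bases after the RefSeq start (GRCm38.p6, chr3:138217523-138217822, plus strand) is shown, with the single motif that was found in capitals.

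Adh7 start region: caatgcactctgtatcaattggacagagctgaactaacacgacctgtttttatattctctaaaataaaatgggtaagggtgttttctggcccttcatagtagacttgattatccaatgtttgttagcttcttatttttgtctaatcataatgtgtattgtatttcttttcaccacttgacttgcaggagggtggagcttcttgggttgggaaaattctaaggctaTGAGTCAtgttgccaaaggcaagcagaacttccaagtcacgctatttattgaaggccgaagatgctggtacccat

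Both strands were searched. The retinoic acid response motif AGGTCA, which 16.3% of 32851 RefSeq start windows hold, was not in it, nor was its direct repeat with 5 bases between the copies, known as DR5 (0.00913% of windows). The T-box letters AGGTGTGA (1.28% of windows) were not in it either. TGAGTCA, the letters of an AP-1 site, began at base 226 of the window, counted from 1 at its 5′ end, and 5.2% of windows hold it. The last 2 motifs were added after the values of Adh7 were known, TGAGTCA after the window had been read. A match of letters is a description and no evidence of binding, and a missing match says nothing about the factor.

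Neighbours of Adh7 in the cluster were read in the same libraries. Adh1, the class I alcohol dehydrogenase, begins 27608 bases beyond the end of Adh7 (chr3:138260991-138290698), with 4 annotated genes from Adh7 to Adh1, both included. Adh1 was at 19.9, 13.2 and 16.7 FPKM in cKO, against 6.78, 3.23 and 2.04 FPKM in WT dpc16, and NP libraries held 3.42, 4.78 and 2.83 FPKM. The cKO libraries did not overlap either WT group. The log2 change was 1.90 ± 0.33 (SE) for cKO against WT dpc16 (limma adjusted p = 0.022) and 1.92 ± 0.33 for cKO against NP (limma adjusted p = 0.0157). Further along, Adh5, the glutathione-dependent formaldehyde dehydrogenase, held 57.8 to 72.6 FPKM in cKO and 50.03 to 60.8 FPKM in WT dpc16, ranges that overlap. Adh6a and Adh6b stayed at or below 1.87 FPKM in every library, and Adh4 was listed at 0 in all 9.

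Among the short-chain enzymes no member passed a bulk comparison. Dhrs3, which turns retinal back into retinol (chr4:144892827-144928209), held 55.1, 47.7 and 49.3 FPKM in cKO, against 48.9, 56.1 and 66.1 FPKM in WT dpc16. Its NP libraries, at 61.6, 62.9 and 67.4 FPKM, were all above the cKO libraries (cKO against NP log2 change -0.33 ± 0.15, SE; limma adjusted p = 0.211). Rdh12, a retinal reductase best known from photoreceptors (chr12:79208914-79222665), averaged 53.7 ± 6.11 FPKM in cKO and 54.6 ± 8.88 FPKM in WT dpc16 (SD, n = 3 each). Its NP libraries held 52.7, 34.6 and 38.5 FPKM and overlapped both. Rdh10, the retinol dehydrogenase that makes most retinal in the embryo (chr1:16105774-16133734), was low throughout, at 1.82 to 3.70 FPKM over the 9 libraries. Dhrs9, a retinol dehydrogenase of epithelia (chr2:69380445-69404533), was below the filter of a mean of 1 FPKM and reached at most 0.363 FPKM.

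The ALDH members differed widely in level. Aldh3a1, which oxidises lipid-derived and other medium-chain aldehydes and is abundant in cornea (chr11:61207537-61218421), held 359, 153 and 190 FPKM in cKO, against 144, 121 and 93.2 FPKM in WT dpc16. The groups did not overlap, but cKO library 1 stood far above the others, and the log2 change of 0.89 ± 0.36 (SE) had an adjusted limma p of 0.232. Without cKO library 1 the change was 0.54. Its NP libraries, at 100.4, 106 and 216 FPKM, overlapped both other groups. Aldh1a3, a retinal dehydrogenase (chr7:66390890-66427517), was at 0.96 FPKM or less in every library and was not tested. Of the other retinal dehydrogenases, Aldh1a1 was the single one that passed the filter, and Aldh1a2 and Aldh8a1 averaged under 0.05 FPKM in each group.

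Rarg, the retinoic acid receptor that predominates in epidermis (chr15:102234938-102257517), had the highest mean level of the 10 members, 203 FPKM over the 9 libraries. It held 183, 170 and 175 FPKM in cKO, against 211, 216 and 211 FPKM in WT dpc16, and NP libraries held 208, 211 and 244 FPKM. Every cKO library was below every WT library of both groups, by a small margin. The log2 change was -0.27 ± 0.12 (SE) against WT dpc16, with an adjusted limma p of 0.262, and -0.32 ± 0.12 against NP, with an adjusted limma p of 0.129. Crabp2, the carrier that delivers retinoic acid to RAR proteins (chr3:87948666-87953376), held 11.3, 5.75 and 7.99 FPKM in cKO and 8.95, 8.997 and 8.07 FPKM in WT dpc16. Its NP libraries, at 8.06, 16.3 and 21.9 FPKM, spread more widely than either pregnant group. Cyp26b1, which degrades retinoic acid (chr6:84571414-84593908), was below the filter, with 0.923, 1.79 and 0.55 FPKM in cKO, against 0.269, 0.153 and 0.278 FPKM in WT dpc16, and 0.215, 0.338 and 1.07 FPKM in NP.

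Over the 7 tested members, the median log2 change was -0.09 for cKO against WT dpc16, -0.17 for WT dpc16 against NP and 0.09 for cKO against NP, where the medians over all tested genes were 0.01, -0.03 and -0.02. None of the 7 passed in WT dpc16 against NP, where 0.13% of all genes did (15 genes), and none passed in cKO against NP, where 5.66% did. At an unadjusted limma p under 0.05 stood 3 of 7 members in cKO against WT dpc16 (17.4% of all genes), 1 of 7 in WT dpc16 against NP (9.05%, 1040 genes) and 3 of 7 in cKO against NP (23.8%). Libraries did not overlap for 3 of 7 members in cKO against WT dpc16 (26.2% of all tested genes), for 1 of 7 in WT dpc16 against NP (15.6%) and for 3 of 7 in cKO against NP (26.4%). Rarg, Aldh3a1 and Adh7 led the order of levels, followed by Dhrs3 (57.2 FPKM over the 9 libraries), Rdh12 (50.1), Crabp2 (10.8) and Rdh10 (2.84). Dhrs3 and Rdh12, neighbours in that order, overlapped in cKO and in WT dpc16 libraries and not in NP, where Dhrs3 was higher.

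**Figure D2:**
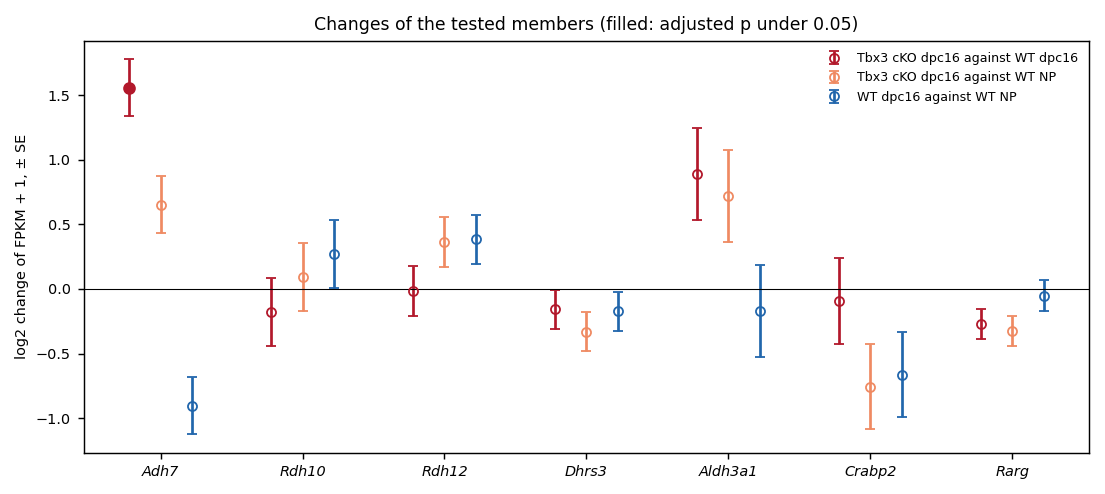
Change of each tested member on the log2(FPKM + 1) scale (vertical axis, ± SE from limma) in 3 comparisons of sorted basal cells, with filled points past an adjusted p of 0.05. The single filled point is Adh7 in Tbx3 cKO dpc16 against WT dpc16, at 1.56.

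Adh7 had the widest range of group means among the 6 members averaging at least 5 FPKM. Among all tested genes, those most like it over the 9 bulk libraries were Mettl17 (Pearson r = 0.96), a factor of mitochondrial translation, Lgals9 (r = 0.95), which encodes the lectin galectin-9, and Rflnb (r = 0.95). The likeness is a description over 9 libraries in 3 groups. Lgals9 held 45.8 to 62.9 FPKM in cKO, against 22.1 to 33.8 FPKM in WT dpc16. Lgals9 was also among the 10 leading genes of both single-cell clusters in which Adh7 was highest.

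The other genes of the pathway were followed as 8 lists with 80 genes, of which 54 passed the filter. In cKO against WT dpc16, 1 rose (Adh1) and 3 fell (Aldh1a1, Aldh3b2 and Aldh9a1), or 7.41%, beside 2.15% of all tested genes. The median log2 change of the 54 was -0.06. Aldh1a1, the main retinal dehydrogenase of many adult tissues, was at 1.87 ± 0.62 FPKM in cKO and 8.44 ± 0.71 FPKM in WT dpc16 (SD, n = 3 each; log2 change -1.74 ± 0.25, SE; limma adjusted p = 0.0108), and NP libraries averaged 5.00 ± 1.46 FPKM. Aldh3b2, of a family that oxidises lipid aldehydes, averaged 15.3 FPKM in cKO and 51.9 FPKM in WT dpc16 (log2 change -1.80 ± 0.31; limma adjusted p = 0.0202). Aldh9a1, which acts on aminoaldehydes, averaged 27.8 FPKM in cKO and 53.6 FPKM in WT dpc16 (log2 change -0.93 ± 0.16; limma adjusted p = 0.0182). Aldh1a1 and Aldh3b2 have close copies beside them on chromosome 19 (Aldh1a7 and Aldh3b3), and counting could divide their reads. All 4 calls lie near the threshold: Adh1 and Aldh3b2 were each lost under 6 of 15 alternatives, Aldh9a1 under 4 and Aldh1a1 under 2. Without WT dpc16 library 2 or without WT dpc16 library 3, none of the 4 remained.

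**Figure D3:**
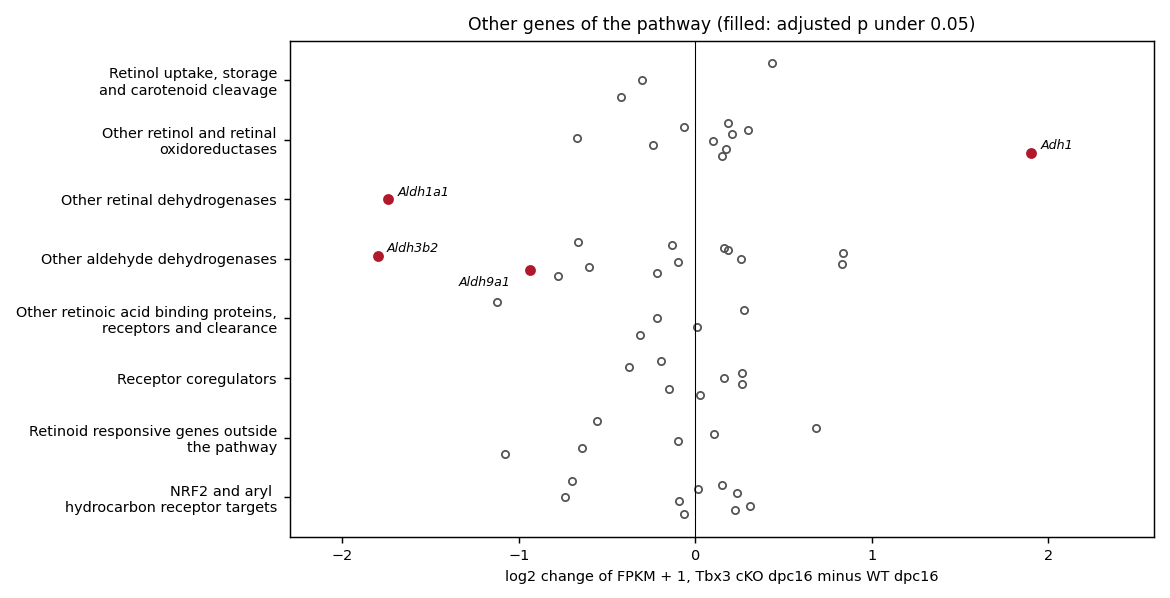
Change on the log2(FPKM + 1) scale (horizontal axis, Tbx3 cKO dpc16 minus WT dpc16) of the 54 tested pathway genes other than the members, by list, with filled points past an adjusted limma p of 0.05. Adh1 is the filled point on the right, and Aldh1a1, Aldh3b2 and Aldh9a1 are those on the left.

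The lists of retinol uptake and storage (3 of 10 genes tested), receptor coregulators (7 of 7), retinoid-responsive genes (6 of 8) and targets of NRF2 and the aryl hydrocarbon receptor (9 of 11) had no gene past the threshold in any bulk comparison. Rxra, the partner that RAR proteins need to bind DNA, held 75.7 ± 6.77 FPKM in cKO and 88.2 ± 6.72 FPKM in WT dpc16 (SD, n = 3 each). Fabp5, a fatty acid carrier that can also deliver retinoic acid, averaged 12.9 ± 5.08 FPKM in cKO (SD, n = 3), 28.4 ± 7.27 FPKM in WT dpc16 and 53.4 FPKM in NP, where libraries held 51.2 to 55.6 FPKM. Its fall in cKO passed against NP (log2 change -2.04 ± 0.26, SE; limma adjusted p = 0.0051) and not against WT dpc16 (-1.12 ± 0.26; adjusted p = 0.06). In cKO against NP, Adh1 and Aldh6a1, a mitochondrial enzyme of valine breakdown, rose, and Aldh1a1, Aldh3b2 and Fabp5 fell, 5 of 54 or 9.26%, beside 5.66% of all tested genes. In WT dpc16 against NP, 0 of the 54 passed in limma, with 6 at an unadjusted p under 0.05, where 9.05% of all tested genes were. Aldh2, the mitochondrial acetaldehyde dehydrogenase and the most abundant ALDH gene, held 322 ± 16.6 FPKM in cKO, 284 ± 22.5 FPKM in WT dpc16 and 324 ± 72.1 FPKM in NP.

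Markers of other cell types in the sort were read beside the rise of Adh7. The 9 upper follicle markers, all measured, summed to 1311 to 2189 FPKM in cKO and 616 to 1404 FPKM in WT dpc16, which overlap, and to 1125 to 3939 FPKM in NP. The highest sums were in cKO library 1, WT dpc16 library 1 and NP library 3. These libraries also held the most Aldh3a1 of their groups (359, 144 and 216 FPKM). Adh7 was highest in library 3 within NP, but in library 2 within cKO and within WT dpc16. Within the upper follicle list Fst, Krt80, Defb6 and Cst6, 4 of the 9, were higher in cKO than in WT dpc16 without overlap. Of all tested genes, 26.2% did not overlap in either direction. For Cst6 the margin was small, with the lowest cKO library at 14.5 FPKM and the highest WT dpc16 library at 14.2 FPKM. Fst held 72.0, 64.8 and 64.7 FPKM in cKO, against 34.5, 40.7 and 24.3 FPKM in WT dpc16, and is also a leading gene of a single-cell cluster in which Adh7 was high. Sostdc1 held 14.4, 25.7 and 44.1 FPKM in cKO, against 49.7, 45.5 and 35.1 FPKM in WT dpc16, and NP libraries held 67.0, 92.2 and 142 FPKM. The 7 spinous markers summed to 3805 to 5601 FPKM in cKO and 6148 to 15593 FPKM in WT dpc16, without overlap. The part of the upper follicle and spinous markers in the result was not tested.

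The single-cell libraries showed which cells carried each member. Clusters were built without the 10 members and the 80 pathway genes and named from fixed markers, and values are CPM, the UMIs of a gene scaled to a fixed total after summing over cells, with 95% counting intervals that cover counting error only. Adh7 and Aldh3a1 were both highest in Sostdc1-high upper follicle-like cells (5095 cells): Adh7 at 255 CPM (248 to 261) and Aldh3a1 at 345 CPM (338 to 352). Next for both came a cluster left unnamed, led by Aspn and Pthlh, with 182 CPM of Adh7 and 206 CPM of Aldh3a1. The same class was highest for both genes in each of the 4 libraries. These cells held 31.5% of all Adh7 UMIs and 41.2% of all Aldh3a1 UMIs, while making up 13.8% of cells. Aldh3a1 also reached 159 CPM in sebaceous-like cells.

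Crabp2 was placed elsewhere, at 276 CPM (270 to 283) in Krt79-high upper follicle-like cells, 134 CPM in granular-like cells and 103 CPM in spinous-like cells, against 10.5 CPM in Sostdc1-high cells. The 2 upper follicle classes thus differed in opposite directions for Adh7 (86.3 CPM in Krt79-high, 255 CPM in Sostdc1-high) and for Crabp2. Rdh12 was at 97.6 CPM in spinous-like and 97.3 CPM in Krt79-high cells, with intervals that overlap. Cyp26b1 was rare and highest in granular-like cells (34.3 CPM, 31.0 to 37.7) and bulge-like cells (16.7 CPM), with 2.85 CPM or less in the other classes of at least 50 cells. Dhrs3 (57.5 CPM, 51.4 to 64.2) and Rdh10 (9.88 CPM, 7.45 to 12.9) were highest in sebaceous-like cells. Rarg was even, at 50.4 to 95.4 CPM in every class of at least 50 cells, and its order among classes differed between libraries. Dhrs9 had 71 UMIs in all, 28 of them in granular-like cells, and Aldh1a3 had 49 UMIs, 21 of them in Krt79-high cells.

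**Figure D4:**
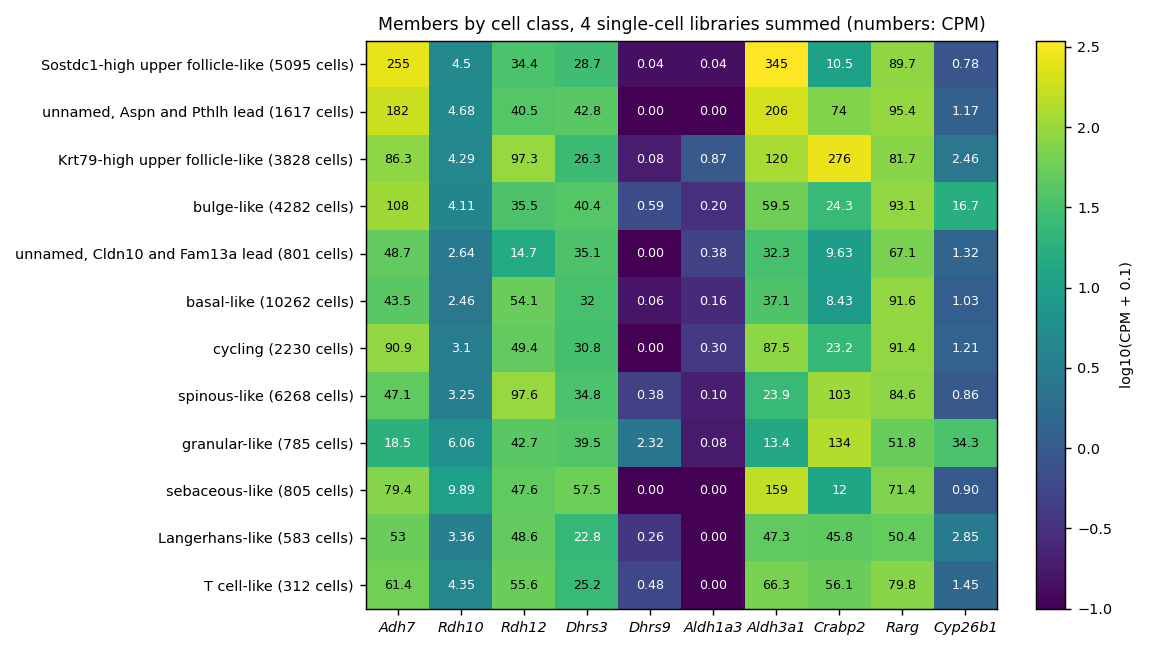
CPM of each member (columns) in each cell class (rows) summed over the 4 single-cell libraries; colour is log10(CPM + 0.1) and the printed numbers are CPM. Adh7 and Aldh3a1 share their highest class, at 255 and 345 CPM, and Crabp2 is highest in another upper follicle class, at 276 CPM.

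Langerhans-like and T cell-like cells, which also held Krt14 at 2628 and 3623 CPM, served as a background for RNA of other cells. Free RNA and doublets, which were not removed, cannot be told apart there. Crabp2 was lower in basal-like (8.43 CPM) and Sostdc1-high cells (10.5 CPM) than in these cells. The background is therefore no floor common to all classes. Adh7 was at 53.0 CPM in Langerhans-like and 61.4 CPM in T cell-like cells, Aldh3a1 at 47.3 and 66.3 CPM, Crabp2 at 45.8 and 56.1 CPM and Rdh12 at 48.6 and 55.6 CPM. The levels of Adh7 (43.5 CPM), Aldh3a1 (37.1 CPM), Crabp2 (8.43 CPM) and Rdh12 (54.1 CPM) in basal-like cells were not above the T cell-like level. They are read neither as expression nor as its absence. Rarg was at 79.8 CPM in T cell-like cells, so its even levels could not be set far apart from this background. The share of cells with an Adh7 UMI was 60.7% in Sostdc1-high cells (median 4233 UMIs per cell), against 21.96% in Langerhans-like (median 4947) and 27.6% in T cell-like cells (median 5199). After each cell was thinned to 2000 UMIs, which left out no cell, the shares were 36.9%, 9.78% and 13.1%.

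Across the states of whole epidermis, Adh7 was at 112 CPM in NP, 53.6 CPM at dpc16, 100.2 CPM at dpp6 and 89.5 CPM at dpp40. The dpc16 value was 0.477 times that of NP (0.457 to 0.498), where the median ratio over all genes was 0.926. Cyp26b1 was at 4.93, 2.14, 5.09 and 5.74 CPM in that order of states, with a dpc16 to NP ratio of 0.434 (0.35 to 0.538). These were the 2 of 8 measurable members past 1.5-fold at dpc16, both lower, where 16.4% of 12691 genes were past it in either direction and 13.4% were lower. At dpp6 and at dpp40 none of the 8 was past 1.5-fold against NP (11.9% and 6.82% of all genes). There is 1 library per state, so these ratios have no replicate check.

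The other 6 measurable members stayed within 1.5-fold of NP at dpc16. Aldh3a1 was at 109 CPM in NP, 82.0 CPM at dpc16, 94.5 CPM at dpp6 and 73.8 CPM at dpp40. Crabp2 was at 80.6, 58.8, 88.2 and 73.1 CPM in that order of states. Rarg was at 87.0, 69.7, 96.0 and 91.3 CPM, and Dhrs3 at 32.3, 30.0, 38.6 and 34.4 CPM. Rdh12 was at 69.3, 77.8, 55.5 and 50.6 CPM, the single abundant member with its highest value at dpc16. Rdh10 stayed between 3.57 and 4.07 CPM. Directions at dpc16 against NP were set side by side for the 7 members tested in bulk. Adh7, Dhrs3, Aldh3a1, Crabp2 and Rarg were lower and Rdh12 higher in both kinds of data. Rdh10 differed in direction between them, and no bulk change was past the threshold. The single-cell median ratio over all genes was 0.926, so slightly lower values were usual there. Dhrs3 (0.929) and Rdh10 (0.922) lay at about that median. How many of all genes kept their direction was not counted. The bulk directions of Aldh3a1 and Rarg turned without NP library 3 (0.18 and 0.021 on the log2 scale). That library held the highest sum of upper follicle markers (3939 FPKM).

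Adh7 was also lower at dpc16 inside the class in which it was highest. In Sostdc1-high cells Adh7 was at 189 CPM at dpc16, against 292 CPM in NP (ratio 0.647, 0.601 to 0.697; 10.2% of all genes were past 1.5-fold in this class), and at 286 CPM at dpp6 and 264 CPM at dpp40. The 2 clusters of this class gave 199.6 CPM at dpc16 against 311 CPM in NP, and 169 CPM at dpc16 against 246 CPM in NP. In Krt79-high cells it was at 68.6 CPM at dpc16, against 95.7 CPM in NP (ratio 0.716, 0.626 to 0.819). T cell-like cells, used as background, were at 39.5 CPM at dpc16, against 79.2 CPM in NP (46 cells). What part of the Krt79-high values this background makes up is not known, so no fall in Krt79-high cells is read from them. Adh7 was in cells of the Aspn and Pthlh cluster at 158 CPM at dpc16, against 179 CPM in NP, with an interval of the ratio that includes 1 (0.723 to 1.08). Bulge-like cells came mostly from cluster 14 at dpc16 and from cluster 2 in NP, and inside these clusters the ratios were 0.669 and 0.814. Adh7 was lower at dpc16 in all 18 clusters that could be compared, with ratios of 0.329 to 0.884. Spinous-like, granular-like and basal-like cells, each as a whole class, were not above the T cell-like cells of their own library, whose level was itself lower at dpc16.

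Sostdc1-high cells were 12.7% of cells at dpc16, against 18.1% in NP, and 12.5% at dpp6 and 13.5% at dpp40. With the share of UMIs from each cluster held at that of NP, a value added after the data were seen, whole-epidermis Adh7 would have been 68.7 CPM at dpc16, against 112 CPM in NP, a ratio of 0.611 in place of 0.477. The same step gave ratios of 0.918 at dpp6 and 0.906 at dpp40.

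**Figure D5:**
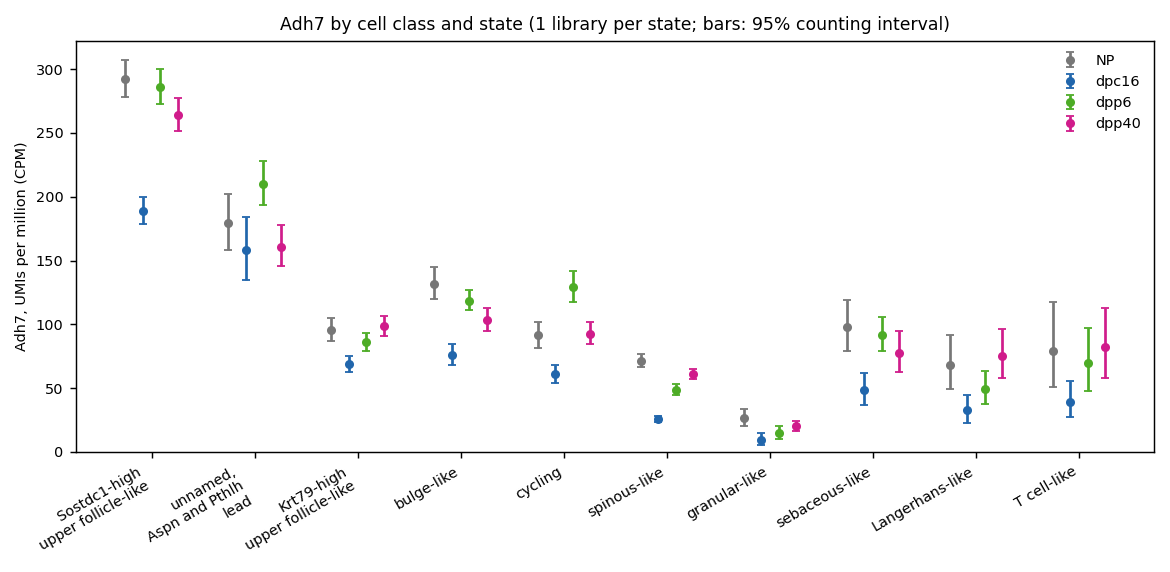
Adh7 in CPM (vertical axis, linear, from 0) by cell class and state, with 1 library per state and bars for the 95% counting interval. In Sostdc1-high cells the dpc16 library is at 189 CPM and the other 3 between 264 and 292 CPM.

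Aldh3a1, highest in the same cells, lay closer to NP there. In Sostdc1-high cells it was at 371 CPM at dpc16, against 382 CPM in NP (ratio 0.971, 0.915 to 1.03). The interval of its ratio lies above that of Adh7 in the same cells, which share library and class, and the difference was not tested over replicates. In bulge-like cells Aldh3a1 was at 54.6 CPM at dpc16, against 87.8 CPM in NP (ratio 0.621). T cell-like cells held 63.4 and 85.8 CPM, the NP value from 46 cells. Neither bulge-like value was above these by more than counting error. Langerhans-like cells held 63.3 CPM at dpc16 and 46.6 CPM (31.4 to 66.5) in NP, so the NP bulge-like value was above that level. Inside the bulge-like clusters the Aldh3a1 ratio was 0.782 in cluster 2 and 1.116 in cluster 14, which lie on either side of 1. Crabp2 in Krt79-high cells was at 218 CPM at dpc16, against 284 CPM in NP (ratio 0.768), and at 374 CPM at dpp6 and 229 CPM at dpp40. Cyp26b1 in granular-like cells was at 35.1 CPM at dpc16, against 40.6 CPM in NP (ratio 0.865, 0.634 to 1.17), while granular-like cells were 1.16% of cells at dpc16, against 3.00% in NP. In bulge-like cells it was at 9.63 CPM at dpc16, against 14.5 CPM in NP (ratio 0.665, 0.428 to 1.03), and in cluster 2 of that class the ratio was 1.001. Bulge-like cells were 6.24% of cells at dpc16, against 11.4% in NP. The share of all genes past 1.5-fold between dpc16 and NP was 9.7% to 19.5% in the 9 classes compared. Basal-like cells were not compared as a class, and entered by cluster. Cluster 6 of this class, with 2024 of its 5054 cells at dpc16, held 29 cells in NP. That is under the minimum of 50, so cluster 6 is not among the clusters compared.

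Rdh12 in spinous-like cells was at 103 CPM at dpc16, against 109 CPM in NP (ratio 0.945, 0.88 to 1.01). That was the single Rdh12 ratio below 1 among the 9 classes compared, where the highest was 1.487. The interval lay above 1 in 1 of these classes and included 1 in the others. By cluster, Rdh12 was lower at dpc16 in 4 of 18, a count that includes clusters at background level. Rarg was lower at dpc16 than in NP in all 18 clusters compared, with ratios of 0.571 to 0.923, a spread that includes clusters at background level. Dhrs3 had ratios of 0.655 to 1.44 over 17 clusters and was lower in 10 of them.

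Of the other pathway genes in whole epidermis at dpc16, 5 were at least 1.5-fold higher and 10 lower than in NP, of 60 with enough UMIs, where 16.4% of all genes were past 1.5-fold in either direction and 13.4% were lower. Adh1, which rose in cKO basal cells, was at 5.12 CPM at dpc16, against 8.22 CPM in NP (ratio 0.622, 0.535 to 0.723). It was highest in sebaceous-like cells, at 11.5 CPM at dpc16, against 71.2 CPM in NP. Aldh1a7 was at 21.7 CPM at dpc16, against 9.61 CPM in NP (ratio 2.26, 2.02 to 2.53), and averaged 13.2 FPKM in WT dpc16 and 6.26 FPKM in NP in bulk (log2 change 1.02; limma adjusted p = 0.368). Aldh1a7 was named after its values were seen, and its reads may be shared with Aldh1a1.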

How the data were processed

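The authors deposited bulk values as FPKM in 1 table of 21950 genes, and single-cell values as raw UMI counts per gene and barcode. Per the submitters' processing notes, cutadapt 1.14, TopHat2, Cufflinks 2.2.1, Cuffdiff and Cell Ranger 2.2.0 were used with build mm10; no settings were stated. Columns headed WT were taken as WT dpc16 by exclusion, and libraries are numbered by column order. The same-number correlations between groups ranged from -0.21 to 0.36. Between WT dpc16 and cKO they were 0.31, 0.07 and 0.36, while other-number pairs of these groups held -0.34 to 0.09. The labels do not say whether the numbers pair libraries. The main fit used no pairing, and a replicate block was an alternative.

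Bulk values were tested as log2(FPKM + 1), which understates changes of low genes, keeping genes whose average reached 1 FPKM: limma 3.58.1 (R 4.3.3), 3 group means over 9 libraries, trend, two-sided, Benjamini-Hochberg over all 11497 genes. The step was tested on simulated data. Barcodes needed 200 detected genes and a mitochondrial share of UMIs up to 10%, doublets were not removed, and cells were clustered with scanpy 1.11.5 and leidenalg 0.10.2 (resolution 1, 30 components, 15 neighbours, 2000 variable genes). Single-cell intervals are exact (95%), ratios need 50 UMIs, and there is no test. IDs were matched to GENCODE M21 (21886 of 21950).

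Members and lists were chosen with earlier results of these data known. All 10 members are named, and of each pathway list the genes past a bulk threshold and at most the 3 with the highest FPKM. Alternatives were the pseudocount, FPKM filter, quantile normalization, groups fitted, each library left out, a replicate block, barcode filter, UMI minimum, 20 most abundant genes left out and clustering resolution.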

Additional observations from a re-analysis of the deposited data

Results flagged for a closer look

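In 2 cases a member moved past 1.5-fold in opposite directions in 2 cell classes under the same contrast. There is 1 library per state, so the difference between the classes was not tested. Crabp2 in granular-like cells was at 159 CPM at dpc16, against 105 CPM in NP (ratio 1.51, 1.29 to 1.78), and in cycling cells at 14.8 CPM at dpc16, against 33.8 CPM in NP (ratio 0.439, 0.323 to 0.595). The cycling values of Crabp2 were below the 37.6 CPM (dpc16) and 48.2 CPM (NP) of Langerhans-like cells in the same libraries. Those cells were used as background.

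Aldh3a1 in cycling cells was at 121 CPM at dpp6, against 72.8 CPM in NP (ratio 1.66, 1.42 to 1.95), and in bulge-like cells at 51.4 CPM at dpp6, against 87.8 CPM in NP (ratio 0.585, 0.501 to 0.684). Bulge-like cells came mostly from cluster 2 in both libraries. T cell-like cells, used as background, held 81.9 CPM of Aldh3a1 at dpp6, against 85.8 CPM in NP (46 cells). Langerhans-like cells held 46.6 CPM of Aldh3a1 in NP.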

How the results depend on the processing

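The call of Adh7 in cKO against WT dpc16 held under all 15 alternatives, and no member was called in WT dpc16 against NP or in cKO against NP under any of them. With each library left out in turn, the count of members called ranged from 1 to 1 in cKO against WT dpc16 and from 0 to 0 in the other 2 comparisons. Pathway genes called in cKO against WT dpc16 (4) became 2 with no filter on low FPKM and 2 with only the 2 groups compared, and ranged from 0 to 5 with each library left out. All genes called in that comparison (247) became 87 with no filter, 118 with only the 2 groups compared, and 41 to 390 with a library left out. Of 312 log2 changes of members, 7 changed sign, none of them called. With each library left out, the WT dpc16 against NP change ranged from -0.37 to 0.18 for Aldh3a1 and from -0.091 to 0.021 for Rarg, both above 0 without NP library 3. The cKO against WT dpc16 change ranged from -0.10 to 0.11 for Rdh12, above 0 without WT dpc16 library 3 or cKO library 1, and from -0.31 to 0.12 for Crabp2, above 0 without cKO library 2. The cKO against NP change of Rdh10 ranged from -0.057 to 0.30, below 0 without NP library 2 or cKO library 3. The cause was not tested. With the replicate block the members called stayed at 1 and Adh7 had a limma adjusted p of 0.0176, while pathway genes called were 5 and all genes 202; 5 of 9 libraries correlated best with a library of their own number. The counts of members past 1.5-fold in single cells (2 at dpc16, 0 at dpp6 and 0 at dpp40) were the same with all barcodes, with a minimum of 200 UMIs and without the 20 most abundant genes, and 9 of 10 members kept their highest class at a resolution of 0.5, the exception being Rdh12.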

Other observations

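A retinol receptor and a retinoic acid carrier were higher in whole epidermis at dpp6 than in NP. At dpp6, 6 of 60 pathway genes with enough UMIs were at least 1.5-fold higher than in NP and 2 were lower. Of all genes, 11.9% were past 1.5-fold in either direction. The receptor and the carrier were both picked after their values were seen, and there is 1 library per state. Stra6, the membrane receptor that takes up retinol from its plasma carrier, was at 4.601 CPM at dpp6 (255 UMIs), against 0.352 CPM in NP (14 UMIs), a ratio of 13.1 (7.65 to 24.2). In Sostdc1-high upper follicle-like cells it was at 17.5 CPM at dpp6, against 1.32 CPM in NP, in cycling cells it had 39 UMIs at dpp6, against 1 UMI in NP, and in Krt79-high cells it was at 10.1 CPM at dpp6, against 0.888 CPM in NP. Langerhans-like and T cell-like cells held 0.822 CPM and no UMI of Stra6 at dpp6. At dpp40, Stra6 in Sostdc1-high cells was at 1.64 CPM.

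Crabp1, the retinoic acid carrier, was at 13.8 CPM at dpp6, against 4.63 CPM in NP (ratio 2.99, 2.54 to 3.53). At dpp40 it was at 6.02 CPM (ratio 1.30, 1.09 to 1.56), within 1.5-fold of NP. Crabp1 was at 1840 CPM in the 31 melanocyte-like cells of the dpp6 library, and NP held 4 such cells. After melanocyte markers, fibroblast markers scored next highest in this cluster, so the cell type that held Crabp1 is not settled. In bulge-like cells Crabp1 was at 39.2 CPM at dpp6, against 26.8 CPM in NP. Bulge-like cells were 20.5% of cells at dpp6, against 11.4% in NP. The part of the mix of cells in the higher Crabp1 was not tested.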
